A study of Equus caballus with 4 samples.

Results

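The myogenic regulatory factors and the MEF2 factors, transcription factors that together switch on the genes of skeletal muscle, were followed in differentiating equine satellite cells (ESC) with and without β-hydroxy-β-methylbutyrate (HMB), a product of leucine breakdown. The members were all non-control probes whose gene name in the array files, in capitals, was *PAX3*, *PAX7*, *MYF5*, *MYOD1*, *MYOG*, *MYF6*, *MEF2A*, *MEF2C* or *MEF2D*. Of these 9 names, 7 were found among the 24998 gene names of the array, with 15 of its 43603 probes. *PAX7* and *MEF2D* each had a probe that the files name only by transcript and description, so that these 2 genes fell outside the rule and their values are given beside those of the members.

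ESC are the stem cells of muscle, and these came from the semitendinosus of colts 6 months old. The cells differentiated for 2 days and were then kept for 24 h with HMB or, as control cells, without it, so that RNA was taken on the third day. The methods give the dose as 50 µM and the labels as 50 µg, and a description field in the labels speaks of a GO treatment where titles and sources name HMB. Each of 4 arrays, all on 1 slide and scanned at 1 time, held HMB-treated cells in Cy5 and control cells in Cy3. Dye and treatment cannot be told apart, because no array had the dyes exchanged. According to the methods the muscle came from 6 colts, cells of each flask were divided between a plate for HMB and a control plate, and RNA of the best integrity was chosen for the arrays. Neither methods nor labels say which colts were kept, which colt stood behind which array or whether both channels of an array came from 1 flask, so that P values measure only the spread between these arrays, whose number limits the precision.

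Satellite cells are marked by paired box factors, chiefly PAX7, with PAX3 as its close relative. Once such cells are activated, the basic helix-loop-helix (bHLH) factors MYF5 and MYOD1 commit them to the muscle lineage, and MYOG and MYF6 act later, as myoblasts leave the cell cycle, fuse and mature. The bHLH factors bind short DNA motifs called E-boxes as dimers with E proteins, and the MEF2 factors bind an A/T-rich motif and work with them at the promoters of contractile and synaptic genes.

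Signals are the processed intensities that the authors deposited, after background subtraction and dye normalisation, in scanner units. A ratio is the log2 of HMB-treated over control cells on the same array, so that -1 stands for a halving and the errors given after ± are SD over the 4 arrays. Each probe binds with a strength of its own, and differences are therefore taken between the channels of a probe, while signals of different probes serve only to choose the brightest probe of a gene and to describe lists of markers.

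Every tested probe of the members was lower in HMB-treated cells. Of the 15 member probes, 14 were bright enough to test, the single *PAX3* probe being the 1 left out, and both channels of all 14 were above background on all 4 arrays. The mean ratio was below 0 for 14 of 14 probes, and 13 of them had ratios below 0 on each array. In the limma test over all 27384 tested probes, 13 of the 14 passed an adjusted P of 0.05, all of them downwards, whereas 22.8% of all tested probes passed in either direction and 11.6% passed downwards. The median of the 14 mean ratios was -0.65, beside 0.02 for all tested probes, but 6 of the 14 are *MYF5* probes, 5 of them overlapping, and the median by gene was -0.44. As RNA was taken from whole cultures, fewer cells of a type and less RNA per cell cannot be told apart.

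Counted by gene, with the brightest tested probe standing for each, 6 of 6 tested members fell. Among the 9931 tested genes with a symbol, 22.8% passed the same threshold, 11.3% downwards and 11.4% upwards. The median ratio of the 6 genes was -0.32, -0.36, -0.57 and -0.60 on arrays 1 to 4, against 0.04, 0.02, 0.02 and -0.00 for all tested genes. The members thus stood below the middle of all genes on each array, and further below it on arrays 3 and 4 than on arrays 1 and 2. Without array 2 the count of member genes past the threshold was 2 and without array 3 it was 1, and the count of member probes was 8 and 7. For all tested probes, 6257 passed with the 4 arrays, 2564 without array 2 and 2729 without array 3.

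**Figure D1:**
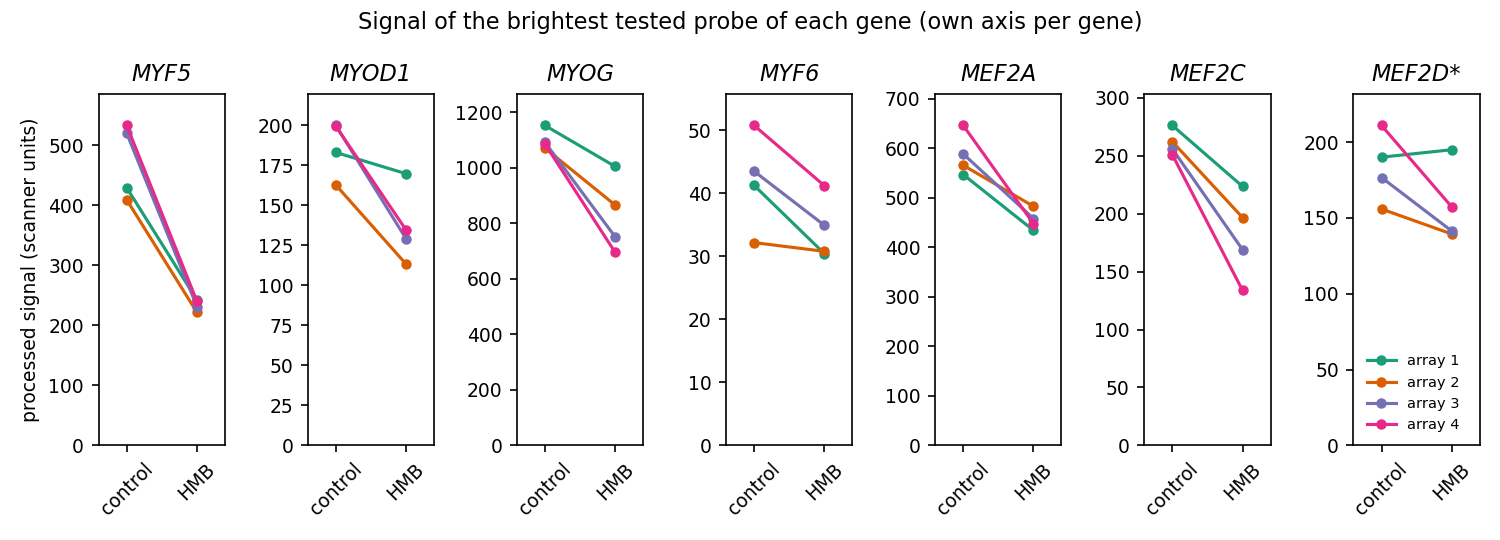
Processed signal (scanner units, vertical axis from 0, own scale for each gene) of the brightest tested probe of each gene in control cells and in HMB-treated cells, with a line for each of the 4 arrays. All lines fall except that of *MEF2D* on array 1, and for *MYF5* the HMB signals, up to 242.3, stay below the lowest control signal of 408.9 (the asterisk marks the gene named by its description).

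The paired box genes gave little signal. *PAX7*, the gene that marks quiescent satellite cells, had 1 probe (A_69_P087251, transcript ENSECAT00000021889, on unplaced sequence) with signals from 2.79 to 3.80 in control cells and from 3.39 to 4.73 in HMB-treated cells. It was above background on 0 of 4 arrays in both channels, and no ratio is given for it. *PAX3*, which drives the entry of embryonic muscle precursors into the limb, had 1 probe (A_69_P050491, ENSECAT00000015993, chr6:11376663-11376722). Its control signals were 17.9, 14.4, 18.8 and 21.5 on arrays 1 to 4, and its HMB signals 13.3, 14.4, 12.6 and 11.5. The control signal was above background on 1 array and the HMB signal on 0, so that the probe did not pass the filter. With no filter on dim probes its adjusted P was 0.175.

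*MYF5*, the earliest bHLH factor of the lineage and a mark of committed cells that still divide, fell most of all members. The gene (ENSECAT00000021416) had 6 probes close together on chromosome 28. The brightest, A_69_P002041 at chr28:7932611-7932670, had control signals of 429.0, 408.9, 519.5 and 532.6 on arrays 1 to 4. The HMB signals of the same probe were 242.3, 221.6, 231.2 and 240.0. Control cells were brighter on arrays 3 and 4 than on arrays 1 and 2, HMB-treated cells were nearly level over the arrays, and the groups did not overlap. The ratios were -0.82, -0.88, -1.17 and -1.15, with a mean of -1.01 ± 0.18 and a limma standard error of 0.08. This is a 2.01-fold lower signal in HMB-treated cells (95% confidence interval 1.75 to 2.31), or 49.8% of control (adjusted P = 0.00157, lower on 4 of 4 arrays). Of the 9931 genes, 112 (1.13%) had a lower mean ratio.

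The other 5 *MYF5* probes are shifted by 1 base each over 64 positions and have 56 positions in common, so that they are near repeats of a single measurement rather than separate evidence. The first 30 bases of the outermost of them are shown because they make clear how much they share. The printed stretches lie at chr28:7932539-7932568 and chr28:7932543-7932572 of EquCab1 on the plus strand, and capitals mark the 26 bases present in both.
MYF5 first tiled probe: atcaTGTGCTATGAACTAAAAATCTAGTCT
MYF5 last tiled probe: TGTGCTATGAACTAAAAATCTAGTCTagat
Over all 6 probes the mean ratio lay between -1.15 and -1.01, with adjusted P values from 0.00108 to 0.00157. On array 1 the 6 ratios ran from -1.03 to -0.82, and on array 3, the lowest, from -1.33 to -1.17. For 6 of 6 probes the HMB signals of the 4 arrays lay below each of the control signals. The brightest probe, which shares no position with the tiled set, had a mean ratio less low than each of the 5 tiled probes, by 0.056 to 0.14, but against 2 of them, A_69_P119107 and A_69_P119108, it was the lower one on array 4.

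*MYOD1*, the factor that can turn other cell types into muscle, had 2 probes that differed in their result. Its brighter probe (A_69_P003216, ENSECAT00000002025, chr7:73782821-73782880) had control signals of 182.9, 162.6, 199.8 and 199.3 on arrays 1 to 4. The HMB signals were 169.7, 113.2, 129.1 and 134.5. Array 1 showed the smallest gap, and its HMB signal was above the control signal of array 2, so that the groups overlapped although HMB was lower within each array. The ratios were -0.11, -0.52, -0.63 and -0.57, with a mean of -0.46 ± 0.24 (1.37-fold lower, 95% confidence interval 1.16 to 1.62, adjusted P = 0.0230). The call rests on 3 of the arrays, as the adjusted P was 0.0875 without array 2, 0.0902 without array 3 and 0.0604 without array 4, in a range of 0.0125 to 0.131 over all alternatives.

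The dimmer *MYOD1* probe (A_69_P124376, chr7:73781068-73781127) lies 1693 positions upstream of the brighter one and did not pass. Its sequence is shown because it reads another stretch of the transcript, and it is in lower case throughout since no part is singled out.
MYOD1 dimmer probe: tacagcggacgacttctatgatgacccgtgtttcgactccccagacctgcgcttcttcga
Control signals were 96.6, 93.5, 103.1 and 92.7, and HMB signals 99.2, 71.7, 87.8 and 80.0. Array 1 was higher with HMB and the other arrays lower, the HMB signal of array 1 standing inside the range of the control signals. The ratios were 0.04, -0.38, -0.23 and -0.21, with a mean of -0.20 ± 0.17 (adjusted P = 0.131). The ratio of the brighter probe was lower than that of the dimmer one on 4 of 4 arrays, by 0.15, 0.14, 0.40 and 0.35. What sets the 2 probes apart was not tested.

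*MYOG*, the factor needed for myoblasts to fuse into fibres, fell on both of its probes. The brighter probe (A_69_P008901, ENSECAT00000016697, chr30:20042018-20042077) gave 1153, 1071, 1092 and 1086 in control cells on arrays 1 to 4. In HMB-treated cells it gave 1005, 866.3, 751.7 and 695.8. The groups did not overlap, and the HMB signal was highest on array 1 and lowest on array 4 while control cells hardly varied. The ratios were -0.20, -0.31, -0.54 and -0.64, with a mean of -0.42 ± 0.20 (1.34-fold lower, 95% confidence interval 1.15 to 1.56, adjusted P = 0.0222). The adjusted P was 0.0625 without array 2 and 0.0901 without array 3, within 0.0164 to 0.122 over all alternatives. With median centring the mean was -0.20, which ended the call (adjusted P = 0.0860).

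The dimmer *MYOG* probe (A_69_P126431, chr30:20042033-20042092) shares 45 bases with the brighter one and behaved alike. Both are shown as printed on the array, on the minus strand of EquCab1, with the shared bases in capitals.
MYOG brighter probe: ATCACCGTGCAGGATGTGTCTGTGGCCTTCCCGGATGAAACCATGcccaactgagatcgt
MYOG dimmer probe: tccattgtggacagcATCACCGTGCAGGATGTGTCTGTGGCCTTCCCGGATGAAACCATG
Its ratios were -0.10, -0.29, -0.53 and -0.53, with a mean of -0.36 ± 0.21 (adjusted P = 0.0353). Array 1 again stood nearest to 0. The mean was -0.18 with median centring, which ended the call, and the adjusted P was 0.0978 without array 2, 0.136 without array 3 and 0.0844 without array 4, and over all alternatives it ran from 0.0231 to 0.147.

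*MYF6*, the bHLH factor most abundant in mature fibres, was dim. Its only probe (A_69_P020481, ENSECAT00000020121, chr28:7922475-7922534) had control signals of 41.2, 32.2, 43.5 and 50.7 on arrays 1 to 4. The HMB signals were 30.4, 30.8, 34.9 and 41.2. The groups overlapped, since the low control signal of array 2 lay among the HMB signals, and array 2 also had the smallest gap. The ratios were -0.44, -0.06, -0.32 and -0.30, with a mean of -0.28 ± 0.16 (1.21-fold lower, 95% confidence interval 1.07 to 1.38, adjusted P = 0.0471). The call was lost whichever array was left out, with adjusted P values of 0.107, 0.0658, 0.161 and 0.0923 without arrays 1 to 4, in a range of 0.0175 to 0.315 over all alternatives.

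*MYF6* and *MYF5* are neighbours on chromosome 28. There are 10004 positions between the *MYF6* probe and the first *MYF5* probe, and no other gene stands between them in the order of the RefSeq gene table. Their ratios nevertheless differed on each array, by -0.39, -0.82, -0.85 and -0.85 for *MYF5* minus *MYF6*, with a mean of -0.73 ± 0.23. The gap was smaller on array 1, where *MYF6* was at its lowest and *MYF5* at its highest.

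*MEF2A*, the MEF2 factor expressed most widely outside muscle, had 1 probe (A_69_P097191, ENSECAT00000012254, chr1:102349413-102349472). Control signals were 547.0, 565.8, 588.7 and 646.2 on arrays 1 to 4, and HMB signals 434.5, 483.0, 458.3 and 448.0. The groups did not overlap, and the gap was widest on array 4, where the control signal was highest. The ratios of -0.33, -0.23, -0.36 and -0.53 stand for a 1.29-fold lower signal (95% confidence interval 1.14 to 1.45, adjusted P = 0.0174, lower on 4 of 4 arrays). The adjusted P was 0.05002 without array 2, just above the threshold, and 0.0712 without array 3, in a range of 0.0113 to 0.108 over all alternatives. With median centring the mean was -0.19, which ended the call (adjusted P = 0.108).

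*MEF2C*, a factor required for the assembly of the contractile apparatus, had 2 probes (ENSECAT00000026707) and both fell. The probe with the higher mean over both channels, A_69_P122221, has its sequence shown because its 60 bases are placed over 647 positions, chr14:78073853-78074499 on the plus strand, so that it is matched in pieces. It is in lower case, with no part singled out.
MEF2C brighter probe: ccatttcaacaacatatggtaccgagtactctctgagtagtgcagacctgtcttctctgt
Its control signals were 276.2, 262.2, 255.9 and 250.9 on arrays 1 to 4, and its HMB signals 223.6, 196.7, 168.9 and 133.8. The groups did not overlap, and HMB-treated cells varied more over the arrays than control cells. The ratios were -0.30, -0.41, -0.60 and -0.91 (1.47-fold lower, 95% confidence interval 1.23 to 1.76, adjusted P = 0.0165). The adjusted P was 0.0631 without array 3, in a range of 0.00888 to 0.119 over all alternatives.

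The other *MEF2C* probe (A_69_P063396, chr14:78083257-78083316) lies 8757 positions further on. Control signals were 290.8, 249.9, 256.9 and 181.3, and HMB signals 192.2, 143.2, 163.8 and 97.0. HMB was lower within each array, but the 2 groups overlapped because both channels were dim on array 4. The ratios of -0.60, -0.80, -0.65 and -0.90 gave a mean of -0.74 ± 0.14 (1.67-fold lower, adjusted P = 0.00270), and the call held whichever array was left out and with median centring (-0.49). The mean ratios of the 2 *MEF2C* probes differed by 0.18 ± 0.19, which is within the spread over arrays.

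*MEF2D*, the MEF2 factor with a splice form specific to muscle, was read by A_69_P075181 (ENSECAT00000021898, on unplaced sequence), which was assigned to it by its description. Control signals were 190.1, 155.9, 176.7 and 211.0 on arrays 1 to 4, and HMB signals 195.0, 139.4, 141.4 and 157.3. Array 1 was slightly higher with HMB, the others were lower, and the groups overlapped. The ratios were 0.04, -0.16, -0.32 and -0.42, with a mean of -0.22 ± 0.20 (-0.11 with median centring), and did not pass (adjusted P = 0.126).

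**Figure D2:**
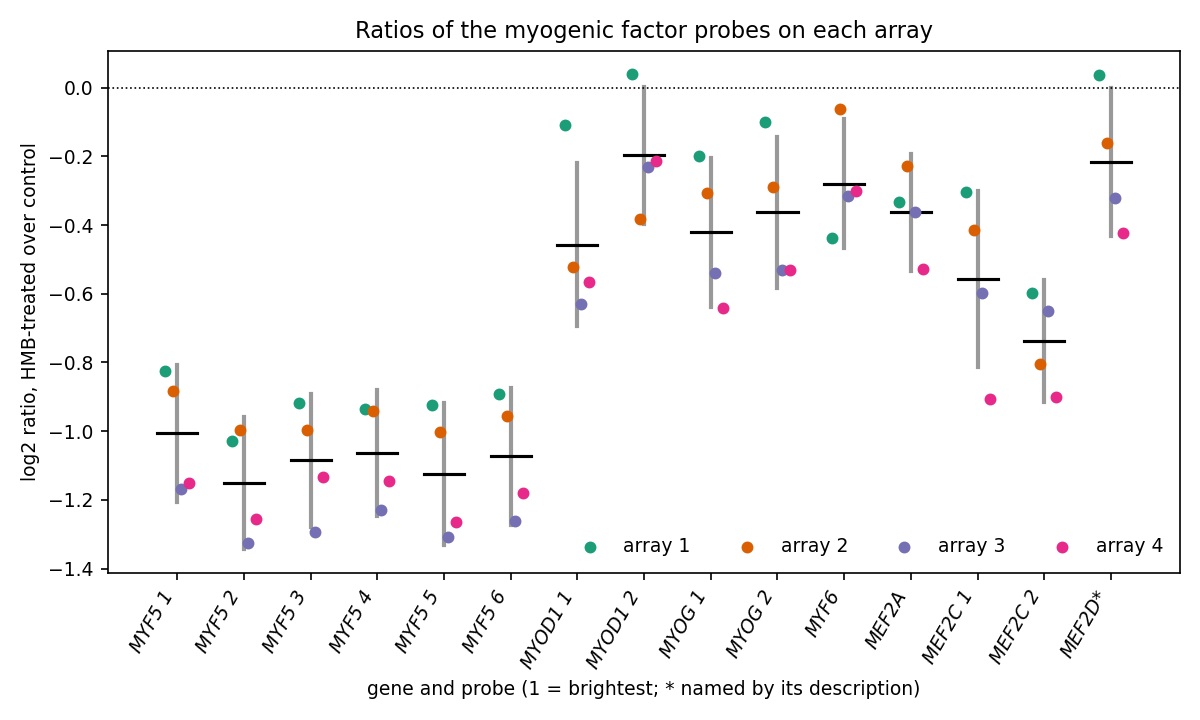
Log2 ratio of HMB-treated over control cells (vertical axis) for each tested probe of the members and of *MEF2D*, with a point for each array, a black bar for the mean and a grey bar for its 95% confidence interval from limma. The 6 *MYF5* probes lie between -1.33 and -0.82, while on array 1 the dimmer *MYOD1* probe and *MEF2D* are at 0.04, the only points above 0.

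Whether members differed from each other was asked for 7 of the 8 pairs chosen, the pair of *PAX7* and *PAX3* having no tested probe. Ratios of the brightest probes were subtracted within each array and tested with an exact permutation test (two-sided, 16 patterns of signs). Its smallest possible P with 4 arrays is 0.125, so that no pair could pass the threshold, and the smallest P after adjustment over the 7 pairs was 0.175. The difference had the same sign on all 4 arrays in 5 pairs.

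*MYF5* was lower than each other tested bHLH gene on each array. For *MYF5* minus *MYOG* the differences were -0.63, -0.58, -0.63 and -0.51, a mean of -0.59 ± 0.06. Arrays 1 to 4 thus gave nearly the same gap between these 2 genes although both ratios moved from array to array. For *MYF5* minus *MYOD1* the differences were -0.72, -0.36, -0.54 and -0.58, a mean of -0.55 ± 0.15. These 2 pairs and that of *MYF5* and *MYF6* had an exact P of 0.125. *MYOD1* minus *MYOG* gave 0.09, -0.22, -0.09 and 0.08, and its mean of -0.04 ± 0.15 was smaller than its spread (exact P = 0.625), with the sign turning without array 2 (0.024), with normexp background correction and loess (0.023) and with the mean of a gene over its probes (0.065).

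Among the MEF2 genes, *MEF2C* was lower than *MEF2D* by -0.34, -0.25, -0.28 and -0.48 on arrays 1 to 4, a mean of -0.34 ± 0.10 (exact P = 0.125). *MEF2A* was lower than *MEF2D* by -0.37, -0.07, -0.04 and -0.11, where array 1 alone gave a gap beyond the others (mean -0.15 ± 0.15, exact P = 0.125). Without array 1 the mean difference was -0.071. The means of *MEF2A* and *MEF2D* were -0.19 and -0.11 with median centring, and -0.34 and -0.26 with centring on tested probes. *MEF2C* minus *MEF2A* was 0.03, -0.19, -0.24 and -0.38, with no common sign (mean -0.19 ± 0.17, exact P = 0.250). The order of the mean ratios, from the lowest, was *MYF5*, *MEF2C*, *MYOD1*, *MYOG*, *MEF2A*, *MYF6* and *MEF2D*. Under each alternative *MYF5* stayed the lowest and *MEF2C* the next, but the order of the other genes changed with normexp and loess, both centrings, the mean over probes and without array 1 or array 2. Within the order as given, *MYF5* was apart from each bHLH gene it was paired with by more than the spread over arrays, whereas *MYOD1* and *MYOG* were not apart.

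**Figure D3:**
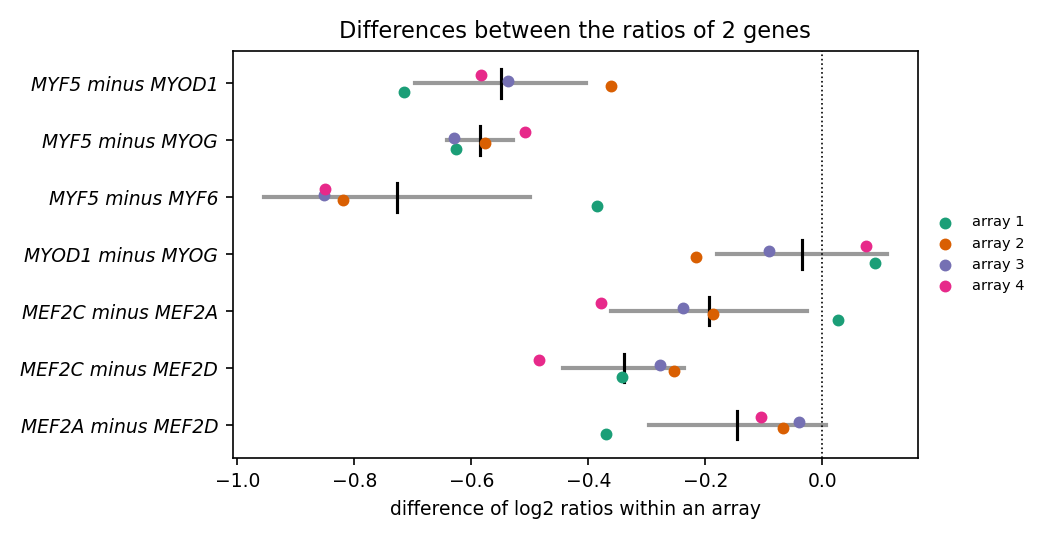
Difference between the log2 ratios of 2 genes within an array (horizontal axis), with a point for each array, a black tick for the mean and a grey bar for 1 SD to each side. The 3 differences of *MYF5* from another bHLH gene lie between -0.85 and -0.36, and those of *MYOD1* from *MYOG* fall on both sides of 0.

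Probes of different members had at most 9 bases in a row in common, on either strand, for a *MYF5* and a *MYOD1* probe. The 6 tested member genes lie on chromosomes 1, 7, 14, 28 and 30, with only *MYF5* and *MYF6* close together. The GC content of their probes ran from 35.0% for the brightest *MYF5* probe to 55.0% for the probes of *MYOD1*, *MYOG* and *MYF6*.

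No alternative turned the direction of a tested member probe, but several ended calls. Alternatives that change only the test or the filter keep the mean ratio and could not turn it. In the methods' t-test, a Student test that the study names in its supplementary protocol and not in its methods section and that takes each probe on its own, 0 of the 6 member genes passed after adjustment, 6 had an unadjusted P under 0.05, and 5 of the 14 member probes passed, all of them tiled *MYF5* probes. The brightest *MYF5* probe had an adjusted P of 0.0507 there, the highest of a range that started at 0.000599. The paper lists *MYF5*, *MEF2A* and *MEF2C* as past an adjusted P of 0.05. It also reports quantitative PCR of *MYF5* that matched its array result. In its account no differentiation marker met the criteria, and it names MyoD and myogenin as such markers. Here *MYOG* and the brighter *MYOD1* probe passed in limma. The t-test as run here thus did not give the paper's calls for *MEF2A* and *MEF2C*, and the reason was not tested. With no filter on dim probes and 43603 probes tested, *MYF5* alone of the 6 genes passed. With the channels taken as unpaired samples, *MYF5* and *MEF2A* passed. With each array centred on its median and no lowess normalisation, *MYF5*, *MYOD1* and *MEF2C* passed.

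The last of these alternatives moved the median of all tested probes to 0.15, and 78.3% of the probes past the threshold were then higher in HMB-treated cells, compared with 49.1% for the deposited ratios and 29.9% to 51.1% under the other alternatives. The 6 member genes then had mean ratios of -0.76 for *MYF5*, -0.37 for *MEF2C*, -0.28 for *MYOD1*, -0.22 for *MYF6*, -0.20 for *MYOG* and -0.19 for *MEF2A*. With the centring done on the tested probes alone, an alternative chosen after seeing the data, these were -0.91, -0.52, -0.43, -0.37, -0.35 and -0.34, and 6 of the 6 genes passed. *GAPDH*, the glycolytic enzyme often used as a reference, had ratios of 0.12, -0.27, -0.45 and -0.39 and a mean of -0.25 ± 0.25 that did not pass (adjusted P = 0.133). It passed without array 1 (adjusted P = 0.0315), and its sign turned with normexp and loess (0.090) and with the centring on all spots (0.88) or on tested probes (0.73), its adjusted P running from 0.000495 to 0.517 over all alternatives. The members kept their sign where *GAPDH*, a single gene, changed its own, but with median centring their means moved toward 0 and 3 passed. The part of scaling in the fall of the members was not tested.

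**Figure D4:**
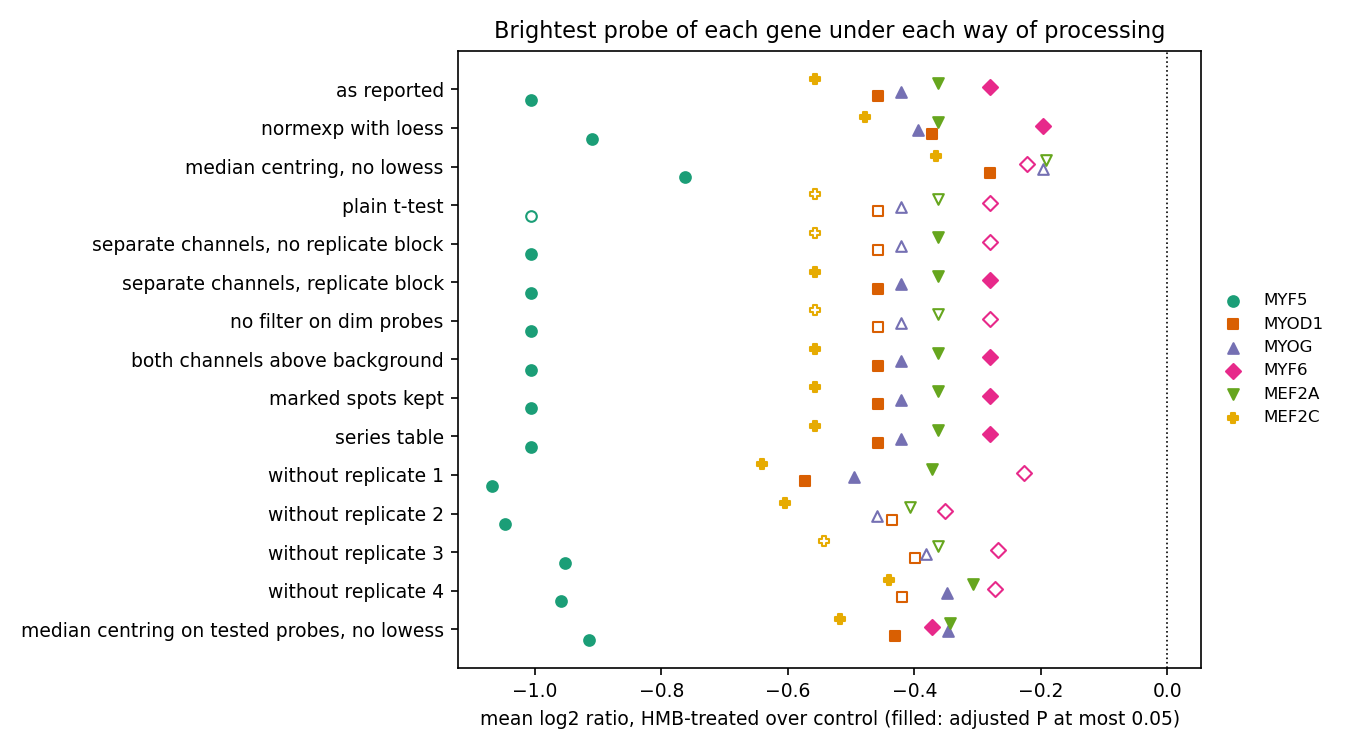
Mean log2 ratio (horizontal axis) of the brightest probe of each member gene under each way of processing (vertical axis), filled where the adjusted P was at most 0.05. All points lie below 0, from -1.07 for *MYF5* without array 1 to -0.19 for *MEF2A* with median centring.

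The factors that act with or upon the members showed no common direction. Of 47 listed genes, 37 were tested, 7 fell and 4 rose, beside 11.3% and 11.4% of all tested genes, and with median centring 3 were lower and 7 higher among those past the threshold. Their median ratio was -0.02, a sign that turned with median centring (0.14), with no filter (0.0014) and without array 4 (0.0098). Among the E proteins, the dimer partners of the bHLH factors, *TCF12* fell (-0.30 ± 0.08, adjusted P = 0.0210) and 2 others did not pass. Of 12 tested inhibitors of the bHLH factors 2 rose, *ID1*, which captures E proteins (0.37 ± 0.25, adjusted P = 0.0480), and *MDFI*, which holds bHLH factors in the cytoplasm (0.33 ± 0.10, adjusted P = 0.0182). Of the 3 tested deacetylases that repress MEF2 factors, class IIa enzymes and a sirtuin, 0 passed in limma and 0 had an unadjusted P under 0.05. Of 11 coactivators, *VGLL2*, a muscle partner of TEAD factors (-0.84 ± 0.50), and *TEAD4*, which is induced by the bHLH factors (-0.31 ± 0.10), fell, and *MAML1*, a coactivator of Notch and MEF2C (0.30 ± 0.09), rose. Of 7 factors upstream of the bHLH genes, *KLF5*, a zinc finger factor (-0.67 ± 0.26), *MEF2B*, a further MEF2 gene (-0.57 ± 0.23, but -0.28 with normexp and loess, and with an HMB signal above background on 3 arrays only), *EYA1*, a cofactor of homeobox factors (-0.50 ± 0.35), and *SIX4*, a homeobox factor (-0.42 ± 0.19), fell. *MEF2BNB*, a neighbour of *MEF2B* and named here after its values had been seen, stood in the list without being such a factor and rose (0.37 ± 0.05, adjusted P = 0.0102). Without it 36 regulators were tested, 7 fell and 3 rose.

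Other tests and scalings moved these results. Of the regulators, 1 passed in the methods' t-test, 5 with no filter on dim probes (43 tested) and 4 with the channels taken as unpaired samples. With median centring the mean ratio was 0.64 for *ID1*, which kept its call. It was -0.07 for *TCF12*, -0.08 for *TEAD4*, -0.24 for *SIX4*, -0.24 for *EYA1* and 0.16 for *MDFI*, whose calls were lost. *EYA1* was also at -0.19 with normexp and loess (adjusted P = 0.158). *MDFI* was at 0.14 with normexp and loess and at 0.013 with centring on tested probes, and *MAML1* at 0.13 with the latter, without passing. Most calls also ended when 1 array was left out, whereas those of *MYF5* did not, and 4 of the 37 regulators passed without array 2 and 2 without array 3. Without array 2, the adjusted P was 0.0708 for *TCF12*, 0.134 for *ID1*, 0.0886 for *MDFI*, 0.0884 for *MAML1*, 0.0926 for *TEAD4*, 0.0771 for *SIX4* and 0.0946 for *EYA1*. Without array 3, it was 0.0891 for *TCF12*, 0.124 for *ID1*, 0.0619 for *MDFI*, 0.0860 for *MAML1*, 0.0906 for *TEAD4*, 0.0724 for *SIX4*, 0.141 for *EYA1*, 0.0739 for *VGLL2* and 0.0544 for *MEF2BNB*. It was 0.0510 for *TCF12* without array 1, and 0.0736 for *ID1* and 0.101 for *EYA1* without array 4, and over all alternatives the adjusted P of the named regulators lay between 0.00366 for *KLF5* and 0.909 for *MDFI*.

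Genes that the members are known to activate were mostly lower too. Of 54 such genes, 50 were tested, 43 fell and 0 rose in limma (1 rose with either centring), beside 11.3% and 11.4% of all tested genes. In limma 47 of the 50 had an unadjusted P under 0.05. The median ratio of the 50 was -0.87 (-0.43 with median centring), beside -0.44 for the member genes and 0.02 for all tested genes. The medians of the 50 genes on arrays 1 to 4 were -0.41, -0.76, -0.93 and -1.18, in the same order of arrays as those of the members. This order is not particular to them. It also holds for the fibroblast markers *COL1A1*, *COL3A1* and *DCN*, though not for others such as *LUM*. Among fusion and adhesion genes 3 of 4 fell, namely those of the adhesion molecules *NCAM1* (-0.90 ± 0.28) and *CDH15* (-0.77 ± 0.31) and of the laminin receptor *ITGA7* (-0.86 ± 0.39). Among synaptic genes 4 of 6 fell, the acetylcholine receptor subunits *CHRND* (-0.90 ± 0.24), *CHRNA1* (-0.75 ± 0.24) and *CHRNG* (-0.53 ± 0.29) and the receptor kinase *MUSK* (-0.74 ± 0.20). Of 30 sarcomere genes 28 fell, among them the myosin heavy chain *MYH8* (-1.93 ± 0.36), the M-band protein *MYOM2* (-1.27 ± 0.24) and the thin filament protein *LMOD2* (-1.17 ± 0.30). Of 10 genes of energy use and membrane 8 fell, among them the calcium channel subunit *CACNA1S* (-0.98 ± 0.34), the calcium release channel *RYR1* (-0.95 ± 0.39) and creatine kinase *CKM* (-0.80 ± 0.53). The myosin heavy chain *MYH2* and the calcium channel subunit *CACNG1* are among those that fell, but their HMB signals were above background on 2 arrays only, so that their ratios (-1.96 ± 0.50 and -0.89 ± 0.47, or -0.72 and -0.32 with normexp and loess) are not measured folds. With both channels required above background 40 of 46 tested genes fell. With median centring *CHRNA1* was at -0.45, *MUSK* at -0.44 (-0.45 with normexp and loess) and *CKM* at -0.50, each still past the threshold. The calls were lost for *CHRNG* and *CKM* without array 2 (adjusted P = 0.0822 and 0.0833), array 3 (0.0832 and 0.0999) or array 4 (0.0590 and 0.0660), and for *CACNG1* without array 2 (0.0570), and that of *CHRNG*, with a ratio of -0.18, also with median centring (0.158), in a range of 7.93e-05 to 0.174 over the named targets and all alternatives. In the same Student test, the methods' t-test, 1 of the 50 passed, and with no filter on dim probes 14 of 52 passed.

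**Figure D5:**
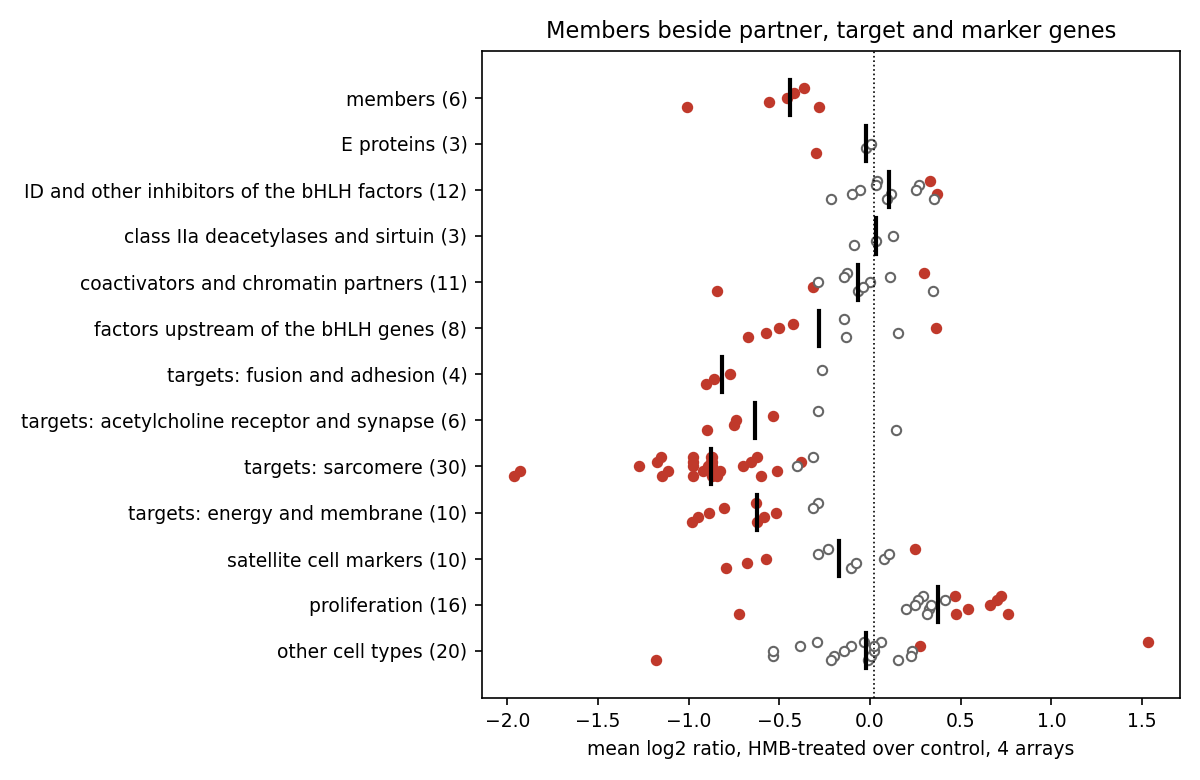
Mean log2 ratio over the 4 arrays (horizontal axis) of each tested gene, by list (vertical axis, number tested in brackets), filled red where the adjusted P was at most 0.05, with a black bar at the list's median and a dotted line at the median of all tested genes, 0.02. The 6 members lie between -1.01 and -0.28, and the median of the 30 sarcomere genes is -0.87.

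Markers of satellite cells and of dividing cells were read because *PAX7* and *MYF5* belong to these states. Of 16 satellite cell markers 10 were tested, with a median ratio of -0.17 that turned to 0.10 with median centring. Among these 10, 3 fell and 1 rose, beside 11.3% and 11.4% of all tested genes. The growth factor receptor *FGFR4* (-0.79 ± 0.41), the Notch receptor *NOTCH3* (-0.68 ± 0.17) and the dystroglycan gene *DAG1* (-0.57 ± 0.30) fell, and the adhesion protein *TENM4* rose (0.25 ± 0.06, or 0.45 with median centring). In the methods' t-test 0 of the 10 passed (5 unadjusted), and with unpaired channels 2 passed. With no filter on dim probes 16 were tested and 2 passed. The HMB signals of *FGFR4* and *NOTCH3* were above background on 3 arrays only, their ratios were -0.37 and -0.30 with normexp and loess, and with both channels required above background they were not tested and 2 of 8 genes passed. With arrays left out, 1 of the 10 genes passed without array 2 and also 1 without array 3. Without arrays 2 and 3 in turn the adjusted P was 0.0542 and 0.0511 for *FGFR4*, 0.0697 and 0.0769 for *DAG1* and 0.123 and 0.143 for *TENM4*, and it was 0.0558 for *DAG1* without array 4 and 0.0626 for *TENM4* without array 1, within 0.00435 to 0.143 for these genes over all alternatives. Of 16 tested proliferation genes 7 rose and 1 fell, beside 11.4% and 11.3% of all tested genes, with a median of 0.38. These calls depended on the test, as 0 passed in the methods' t-test and 0 with no filter on dim probes (8 unadjusted in each), and with unpaired channels 0 rose and 1 fell, whereas with median centring 14 rose and the median was 0.59. The cyclins *CCNA2* (0.76 ± 0.28) and *CCNB1* (0.70 ± 0.31) and the proliferation antigen *MKI67* (0.72 ± 0.39) rose, and the cell cycle inhibitor *CDKN1A* fell (-0.72 ± 0.25). The call of *MKI67* ended without array 1 (adjusted P = 0.0592) or array 2 (0.0584), and 4 of the 16 genes passed without array 1 and 4 without array 2, with adjusted P values of the named genes from 0.00168 to 0.345 over all alternatives. On arrays 1 to 4 the proliferation medians were 0.63, 0.42, 0.04 and 0.58, the smallest being that of array 3.

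The cultures carried myogenic markers other than *PAX7* in both channels. Of 7 myogenic markers, *MYF5*, *MYOD1* and *MYOG* among them, 6 were above background on every array, *PAX7* on 0, and the brightest was that of the intermediate filament *DES* (-0.98 ± 0.37, adjusted P = 0.00683, and -0.46 with median centring and -0.61 with centring on tested probes). Their summed signal was 38009, 36692, 39937 and 41360 in control cells and 27558, 19885, 18083 and 17873 in HMB-treated cells on arrays 1 to 4. HMB-treated cells were lower on each array, the least so on array 1. Most of this sum is *DES*, with 26896, 26448, 29119 and 30740 in control cells on arrays 1 to 4. In HMB-treated cells *DES* gave 19477, 13658, 12494 and 12809. The sum therefore says little on *MYF5*, *MYOD1* and *MYOG*. This sum and those of other cell types below were taken with the deposited scaling only.

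Of 20 tested markers of other cells 3 passed, beside 22.8% of all tested genes, and 10 passed with either centring. Of 12 fibroblast and fibro-adipogenic markers 11 were tested and 1 passed, the growth factor receptor *PDGFRA*, which rose (1.09, 1.38, 1.46 and 2.19 on arrays 1 to 4, mean 1.53 ± 0.47, adjusted P = 0.00358, and 0.89 with normexp and loess, 0.93 with median centring and 0.78 with centring on tested probes). Their brightest gene, that of the collagen chain *COL1A2*, was at -0.20 ± 0.28 (adjusted P = 0.247), a sign that turned with normexp and loess (0.17) and with both centrings (1.02 and 0.87). Their summed signal was 421697, 397251, 423651 and 540781 in control cells and 500660, 351890, 371783 and 366556 in HMB-treated cells, of which 11 or 12 markers were above background on each array. This sum came mostly from collagen genes such as *COL1A2*. Of 5 tested smooth muscle and pericyte markers the myosin gene *MYH11* fell (-1.18 ± 0.86, adjusted P = 0.0368), with an HMB signal above background on 3 arrays only and a mean of -0.76 without array 4 and -0.45 with normexp and loess. It did not pass without array 1 (0.0802), array 2 (0.0701) or array 3 (0.0535). The brightest of them, the actin gene *ACTA2*, had -0.53 ± 0.54 (adjusted P = 0.0934), with -0.27 without array 4 (adjusted P = 0.0449) and -0.12 with median centring, *RGS5* was never above background, and the sums were 21508, 20866, 15354 and 15084 in control and 18959, 17202, 12385 and 6164 in HMB-treated cells.

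Of 7 leukocyte markers 4 were tested, and the brightest, the phosphatase gene *PTPRC*, which was named by its description, was higher (0.28 ± 0.13, adjusted P = 0.0374), though not without array 1 (0.0678), array 2 (0.115), array 3 (0.110) or array 4 (0.0551), nor with the mean of its probes (0.209). Its ratio was 0.13 with that mean, 0.66 with median centring and 0.51 with centring on tested probes. *CD3E* and *ITGAM* were never above background, and the sums were 18209, 16144, 18262 and 16909 in control and 23465, 18004, 20600 and 18059 in HMB-treated cells. Of the adipocyte markers 4 of 5 and of the endothelial markers 5 of 6 were never above background, with summed signals of up to 71.4 and 50.2 on an array, and 0 of either were tested. No probe was found for *CEBPA* and *CLDN5*. Over all tested markers of other cells the median ratio was -0.02, which turned with both centrings (0.25 and 0.10), 1 gene fell and 2 rose, and over the alternatives the adjusted P of those named ran from 0.000507 to 0.569. According to the methods, a preplating step was meant to lessen contamination by fibroblasts. The part of other cells in the fall of the members was not tested.

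The genes whose 4 ratios lay nearest to those of *MYF5*, by Euclidean distance among 9738 other genes with a value on each array, were *RBFOX1*, a splicing regulator, at 0.124, *OTOA*, an inner ear protein, at 0.145, *TGFB2*, a growth factor, at 0.176, *PPFIBP2*, a liprin, at 0.191, and *CRYAB*, a small heat shock protein, at 0.192. Of the 5 nearest to *MYOG*, 1 is not reported here, and the others were *MDH2*, a malate dehydrogenase of mitochondria, at 0.027, *PI4KB*, a lipid kinase, at 0.081, *TSPAN3*, a tetraspanin, at 0.082, and *BMP2*, a bone morphogenetic protein, at 0.083. As these genes were chosen for ratios like those of *MYF5* and *MYOG*, their directions and calls are no findings of their own. The likeness did not hold under each scaling, since with median centring *CRYAB* was at -0.38 and *OTOA* at -0.52 where *MYF5* was at -0.76, and *MDH2* was at 0.11 where *MYOG* was at -0.20.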

How the data were processed

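The authors made the files of the 4 two-colour arrays with Feature Extraction 10.10.1.1 (the methods name another version). The deposited intensities are spot means in raw form, and in processed form have had background subtracted and the dyes normalised. The deposited log10 ratios were made by the authors with linear and lowess normalisation, and deposited marks of 0 or 1 describe each spot. The log10 ratios were multiplied by 3.32. Control spots and spots marked non-uniform or outlying were left out. Testing required 1 channel above background on each array and values on 3 arrays or more. The median ratio of signal to background over spots was 3.16 to 3.82 in Cy3 and 4.68 to 5.85 in Cy5. Probe positions are those of the files on EquCab1, and the RefSeq gene table, of another assembly, gave symbols and gene order only.

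An intercept was fitted to the ratios with empirical Bayes variances (limma 3.58.1, R 4.3.3), and P values were adjusted after Benjamini and Hochberg across the whole table, with 0.05 as threshold. Python 3.11.15, numpy 2.4.6, pandas 2.3.3, scipy 1.17.1, matplotlib 3.10.9 and the R package data.table (1.17.8) were also used. Recovery of changed probes was tested on simulated data. Of 200 probes raised by a log2 ratio of 1, 159 (79.5%) were recovered, with 7 wrong calls. The other simulated probes were left unchanged, whereas 6257 of 27384 probes passed in the data. Most member genes also had mean ratios smaller in size than 1. The simulation thus checks the procedure and does not give the recovery for the members. The genes named are the members, up to 4 genes of each class with the largest mean ratio among those past the threshold with a common sign on all arrays, the brightest marker of each other cell type, the 5 genes nearest to *MYF5* and to *MYOG* (1 of the latter is not reported), and *GAPDH*. *MEF2BNB* and *DES* were named after their values had been seen. Members and lists were chosen with earlier results of these data known.

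Alternatives were normexp background correction (offset 50) with loess, median centring without lowess, the methods' t-test (a Student test named in the supplementary protocol), separate channels with and without the array as a replicate block, testing of dim probes too, a filter on both channels, use of marked spots, the series table, the mean over a gene's probes, and the omission of each array (2 values then sufficed). Promoters were not searched for motifs, because no promoter sequences were at hand.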

Additional observations from a re-analysis of the deposited data

Results flagged for a closer look

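In 107 sets of 4 array values the lowest or highest value was compared with its nearest neighbour. In 7 of them this gap, as a share of the whole range, was beyond 0.829, the critical value of Dixon's test. That is near the share of about 1 in 20 that chance gives. Some sets are also not separate, such as those of overlapping *MYF5* probes. The HMB signals of 1 tiled *MYF5* probe (A_69_P119107) were 189.9, 186.3, 182.9 and 236.4 on arrays 1 to 4, with array 4 apart (0.869). The difference of *MYF5* minus *MYF6* was smallest on array 1, at -0.39 beside -0.82 to -0.85 on the others (0.932). The ratios of *MAML1* were 0.24, 0.24, 0.27 and 0.43, with array 4 apart (0.840). Those of *CHRNG* were -0.11, -0.68, -0.66 and -0.69, with array 1 apart (0.960), and those of *CACNA1S* were -0.48, -1.10, -1.11 and -1.23, again with array 1 apart (0.829 after rounding). *ACTA2* had -0.19, -0.28, -0.32 and -1.34, with array 4 apart (0.884). *PTPRC* had 0.47, 0.21, 0.22 and 0.21, with array 1 apart (0.938). Why these arrays stood apart was not tested.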

How the results depend on the processing

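Of 196 values of member probes under the alternatives, 157 kept their direction and side of the threshold, 39 lost the call and 0 turned. The t-test, the separate channels, the filters and the series table leave mean ratios as they are, so that no sign could turn there. The series table and the replicate block repeat the main fit. Among the 157 values are 14 of the dimmer *MYOD1* probe, which did not pass in the main fit. With the array as the replicate block, separate channels gave 6257 probes and 13 member probes, the counts without it being 2226 and 7. The methods' t-test (a Student test of the supplementary protocol) gave 768 probes, 5 member probes, 0 member genes (6 unadjusted), 1 regulator, 1 muscle target, 0 satellite cell markers (5 unadjusted) and 0 proliferation genes (8 unadjusted). With no filter on dim probes the numbers were 3690, 7, 1, 5, 14, 2 and 0 (8 unadjusted), and the cause was not tested. The methods' t-test as run here did not give the paper's calls for *MEF2A* and *MEF2C*, which the paper lists under other transcript names. Separate channels without the block gave 2 member genes, 4 regulators, 2 satellite cell markers and 1 proliferation gene. With median centring 3 member genes and 15 proliferation genes passed, and with both channels above background 2 satellite cell markers.

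Leaving out each array gave 2564 to 4981 probes, 7 to 12 member probes, 1 to 5 member genes, 2 to 10 regulators, 29 to 46 muscle targets, 1 to 4 satellite cell markers and 4 to 12 proliferation genes. Among the probes past the threshold, 36.2% were higher in HMB-treated cells without array 2 and 29.9% with separate channels without the block.

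Signs turned for *COL1A2* (0.17 with normexp and loess, 1.02 and 0.87 with centring on all spots and on tested probes), *GAPDH* (0.090, 0.88 and 0.73) and *MDH2* (0.11 with centring on all spots). They also turned for *MYOD1* minus *MYOG* (0.023 with normexp and loess, 0.065 with the mean of probes, -0.0771 to 0.024 without an array, turned without array 2), and for the medians of regulators (0.14 with centring, 0.0014 with no filter, -0.0479 to 0.0098 without an array, turned without array 4), satellite cell markers (0.095 with centring) and other cell types (0.25 and 0.095 with the centrings). The cause of these changes was not tested. Centring on tested probes was chosen after seeing the data. Signal over background limits *PAX3* and *PAX7*, which did not pass the filter and, tested with no filter, had adjusted P values of 0.175 and 0.560.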
